A study of Rattus norvegicus with 4 samples.

Results

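The genes described here are 9 that make, break down or regulate glycogen in the liver: Gys2, Ugp2, Pgm1 and Gbe1 on the side of synthesis, Pygl, Pygb and Phka2 on the side of breakdown, and Ppp1r3b and Ppp1r3c, which bring protein phosphatase 1 to the glycogen particle. They were chosen by symbol. The annotation of the array platform named probes for 5 of them (Gys2, Pgm1, Gbe1, Pygb and Ppp1r3b), and the RefSeq accession printed in the scanner reports added Ugp2 and Ppp1r3c. Neither source named a probe for Pygl or Phka2, so the main phosphorylase of the liver and the liver regulatory subunit of its kinase have no value here. The 7 measured genes, of 12461 genes with a named probe, had 10 of the 33849 gene probes of the array. Of these 10, 8 passed the filter on dim probes, at least 1 for each gene. To pass, a probe had to exceed its background in both rats of the thiamine or of the untreated group, and Pygb passed through the thiamine group alone.

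Glycogen is the glucose store of the liver. Glucose 6-phosphate is turned into glucose 1-phosphate by phosphoglucomutase and then into UDP-glucose. From UDP-glucose, glycogen synthase builds chains in which the branching enzyme makes branch points. Glycogen phosphorylase cuts glucose units off again. Phosphorylation switches the synthase off and the phosphorylase on, and protein phosphatase 1, held on glycogen by its targeting subunits, reverses both steps. In a fasted animal the liver draws this store down to keep blood glucose up.

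The thiamine livers came from male Otsuka Long-Evans Tokushima Fatty rats given thiamine (vitamin B1) at 0.2%, or 2 g per L, in the drinking water for 51 weeks from 4 weeks of age, and the untreated livers came from male rats of the same strain whose water held 0% thiamine. All ate standard chow, were 55 weeks old at sampling and had gone 16 h without food. The strain lacks the cholecystokinin A receptor and becomes obese and diabetic with age, so both groups are livers of a diabetes-prone animal and no lean strain was analysed here. Each of the 4 rats (2 per group, of 8 kept per group) had its own 1-colour CodeLink array, on which short oligonucleotide probes report RNA as fluorescence, and cages held 2 rats, with the cage of each rat not given in the sources used here.

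The liver label held: all 8 hepatocyte markers had probes above background on all 4 arrays, although 5 of the 8 were saturated on all 4 arrays, so that their summed level gives no comparison. Of the 5 skeletal muscle markers, Ckm, Myh2 and Mb were not well above background on any array, while Acta1 and Tnnt3 were above it on all 4. The summed level of Acta1 and Tnnt3 was 609 and 485 in thiamine rats 1 and 2, against 612 and 626 in untreated rats 1 and 2 (normalized intensity). More probes were above background on the thiamine arrays (19075 and 20071) than on the untreated arrays (18176 and 18392). The number of animals limits the precision of every value below. In whole liver, fewer cells of a type and less RNA per cell cannot be told apart.

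Of the measured genes, 4 were the furthest apart between the groups by fitted difference. Pygb is among them, though it passed the filter through the thiamine group only. The DNA before the start of each of the 4 is shown here as the stretch where its transcription is set up. No binding or methylation was measured in this series. The windows run from 250 bases before to 50 bases after the annotated start, 5′ to 3′ on the strand of the gene, and come from RefSeq on the build GRCr8, a genome of the BN strain and not of these rats. Their places are chr14:99697953-99698252 on the minus strand for Ugp2, chr5:119710484-119710783 on the plus strand for Pgm1, chr3:160071891-160072190 on the plus strand for Pygb and chr1:243878478-243878777 on the minus strand for Ppp1r3c. Capitals mark the matches described after the sequences.
Ugp2: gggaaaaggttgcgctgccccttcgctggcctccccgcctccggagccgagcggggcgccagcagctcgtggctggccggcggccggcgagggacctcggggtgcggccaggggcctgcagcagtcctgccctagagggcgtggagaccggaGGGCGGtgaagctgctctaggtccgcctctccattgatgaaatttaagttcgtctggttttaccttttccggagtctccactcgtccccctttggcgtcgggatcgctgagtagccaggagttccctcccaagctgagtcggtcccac
Pgm1: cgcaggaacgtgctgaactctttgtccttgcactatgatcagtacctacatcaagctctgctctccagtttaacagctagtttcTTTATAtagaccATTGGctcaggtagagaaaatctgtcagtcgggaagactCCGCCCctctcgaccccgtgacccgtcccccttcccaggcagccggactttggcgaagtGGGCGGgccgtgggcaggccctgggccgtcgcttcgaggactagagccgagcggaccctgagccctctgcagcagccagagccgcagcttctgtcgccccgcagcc
Pygb: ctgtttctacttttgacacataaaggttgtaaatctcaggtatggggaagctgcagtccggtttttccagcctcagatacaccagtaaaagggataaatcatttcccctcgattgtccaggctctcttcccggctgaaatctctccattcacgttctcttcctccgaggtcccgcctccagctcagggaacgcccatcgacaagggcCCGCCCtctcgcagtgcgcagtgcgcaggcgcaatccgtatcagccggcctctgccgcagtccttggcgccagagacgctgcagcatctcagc
Ppp1r3c: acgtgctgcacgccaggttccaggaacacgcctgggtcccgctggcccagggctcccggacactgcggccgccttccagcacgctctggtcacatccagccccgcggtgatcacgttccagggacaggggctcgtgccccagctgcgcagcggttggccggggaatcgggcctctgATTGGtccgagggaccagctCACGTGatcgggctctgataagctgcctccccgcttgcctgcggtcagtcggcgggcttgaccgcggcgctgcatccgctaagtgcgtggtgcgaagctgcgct

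Both strands were searched for 6 sets of letters: CACGTG (the E-box read by clock factors), TGACGTCA (the cAMP response element), GTAAACA (a forkhead site), TATAAA (the TATA box), CCAAT and GGGCGG (the GC box). Ppp1r3c was the 1 of 6 searched genes with CACGTG, which begins 54 bases before its start and occurs in 6.42% of all 33469 promoter windows of this length. Ppp1r3c also holds CCAAT on the opposite strand, printed as ATTGG, 74 bases before the start. Ugp2, Pgm1, Pygb and Gbe1 hold the GC box, found in 33.1% of windows. TATAAA, found in 14.2%, is held by Gbe1, where it lies after the start, at positions 12 to 17. Pgm1 holds it on the opposite strand, printed as TTTATA and beginning 166 bases before the start. Pgm1 further holds CCAAT, found in 37.5%. TGACGTCA (1.83% of windows) and GTAAACA (3.78%) had no match in the 6 windows, and the window of Gys2 had a match to none of the 6 motifs. These matches share no letters with each other and describe the sequence only.

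None of the measured genes was called different after thiamine. Pygb and Ugp2 were the furthest above the untreated livers, Pgm1 (by its brighter probe) and Ppp1r3c the furthest below, and Gys2, Gbe1 and Ppp1r3b lay close to the untreated level. In limma, 0 of the 7 genes and 0 (0%) of all 18664 kept probes had an adjusted p under 0.05 after Benjamini-Hochberg correction. An unadjusted p under 0.05 was found for 1260 (6.75%) of all kept probes. Of the 6 genes above background on all 4 arrays, it was found for 1 higher gene, Ugp2, and 1 lower gene, Pgm1, against 2.65% higher and 2.5% lower among the 16180 probes of the same kind. Over all kept probes these shares were 3.81% higher and 2.94% lower. The adjusted p of the 6 genes lay between 0.57 and 0.96. Pygb, which was kept only because it was above background in the thiamine livers, is left out of these counts.

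**Figure D1:**
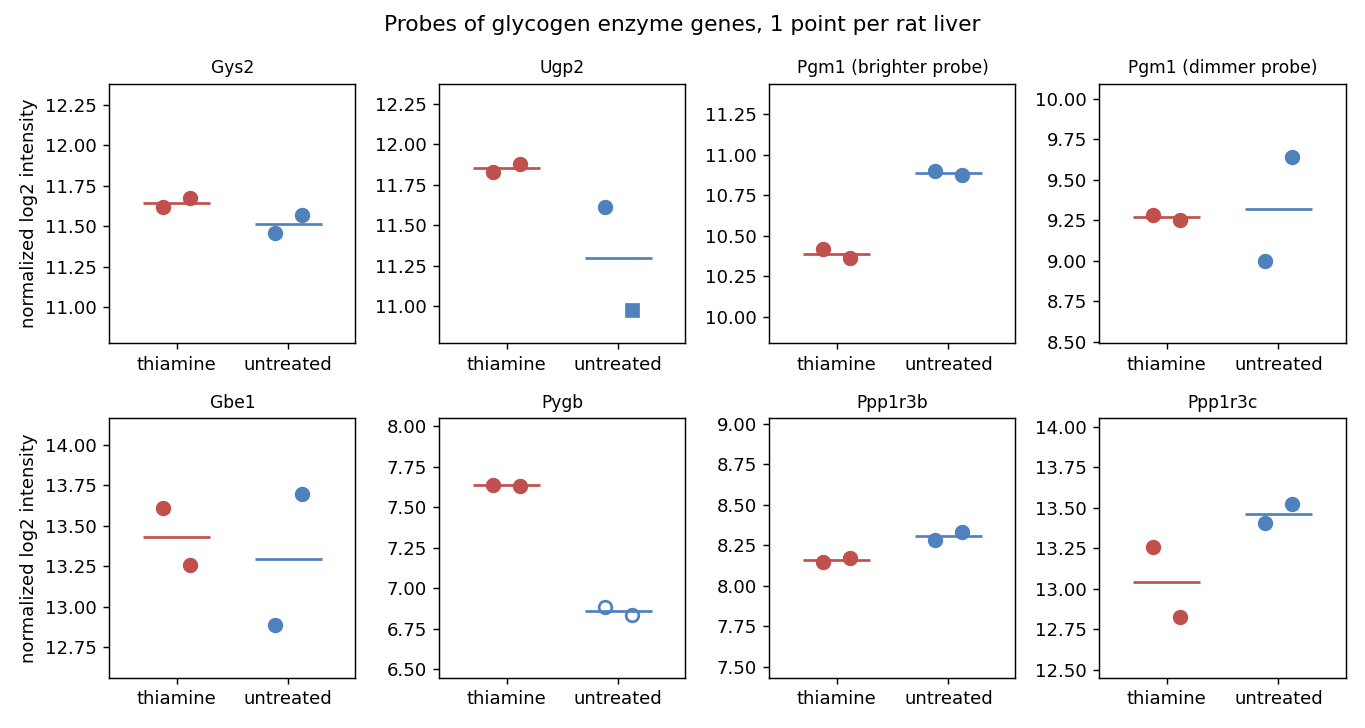
Normalized log2 intensity (y axis, the same span of 1.6 log2 units in each panel) of the 8 kept probes, with thiamine livers at left and untreated livers at right, 1 point per rat in the order rat 1, rat 2 and a bar at the mean of each group. Open points are spots not well above background and the square is a spot marked as contaminated; the groups stay apart in every panel except the dimmer Pgm1 probe and Gbe1.

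On the side of synthesis, Gys2 encodes the liver glycogen synthase, the enzyme that adds glucose to the chain. Its background-subtracted intensity was 3317 and 3317 in thiamine rats 1 and 2, against 2571 and 2880 in untreated rats 1 and 2. After normalization the values were 11.62 and 11.67 in the thiamine livers and 11.46 and 11.57 in the untreated livers (log2). The thiamine livers were the higher pair with a gap smaller than the spread of the untreated pair. The difference was 0.13 ± 0.18 (log2, moderated SE, n = 2 per group), a fold of 1.09, with a 95% interval from -0.26 to 0.52 and an adjusted p of 0.94 in limma. It ran from 0.073 without untreated rat 1 to 0.19 without untreated rat 2.

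Ugp2 encodes the UDP-glucose pyrophosphorylase that makes the glucose donor of the synthase. Its intensity was 3854 and 3867 in the thiamine livers, against 2870 and 1850 in the untreated livers, or 11.83 and 11.88 against 11.62 and 10.98 on the normalized log2 scale. The thiamine rats were almost equal and both above the untreated rats, which differed widely. The spot of untreated rat 2, the lowest of the 4, carried the contamination flag. The difference was 0.56 ± 0.22 (a fold of 1.47, n = 2 per group, limma adjusted p = 0.64), with a 95% interval from 0.065 to 1.05 that is not corrected for the number of probes. Leaving out untreated rat 2 gave 0.24 and leaving out untreated rat 1 gave 0.88, and it was 0.26 when flagged spots were set to missing, which leaves 1 untreated value for this gene.

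Pgm1 encodes phosphoglucomutase, which serves both directions of the pathway. The array carries 2 probes for it with the same RefSeq accession. The brighter one read 1410 and 1346 in the thiamine livers, against 1706 and 1721 in the untreated livers, or 10.42 and 10.36 against 10.90 and 10.88 (normalized log2). Both thiamine rats were below both untreated rats, and within each pair the values were close. The difference was -0.50 ± 0.18 (a fold of 0.71, n = 2 per group, limma adjusted p = 0.57) and stayed between -0.53 and -0.47 when any 1 rat was left out. The dimmer probe did not show this: it read 597 and 603 in the thiamine livers, against 414 and 688 in the untreated livers. Its normalized values were 9.28 and 9.26 in the thiamine livers, inside the range of 9.001 to 9.64 of the untreated livers, and its difference was -0.05 ± 0.22 (limma adjusted p = 0.98). With the mean of both probes the difference of Pgm1 was -0.27.

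Gbe1 encodes the branching enzyme. Its kept probe read 13627 and 10130 in the thiamine livers, against 6983 and 12726 in the untreated livers, or 13.61 and 13.26 against 12.89 and 13.70 (normalized log2). The groups overlapped, with untreated rats holding both the lowest and the highest value. The difference was 0.14 ± 0.26 (n = 2 per group, limma adjusted p = 0.96), with a 95% interval from -0.43 to 0.71. Its sign turned without thiamine rat 1 (-0.04) and without untreated rat 1 (-0.26), while leaving out thiamine rat 2 gave 0.32 and leaving out untreated rat 2 gave 0.55. A further Gbe1 probe was not well above background on any of the 4 arrays and gives no fold.

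On the side of breakdown, only Pygb was measured. It encodes the brain form of glycogen phosphorylase, which many tissues make beside their main form. The probe read 146 and 153 in the thiamine livers, against 53.5 and 50.4 in the untreated livers. Both thiamine spots were above background and neither untreated spot was well above it. On the normalized log2 scale the values were 7.64 and 7.63 in the thiamine livers, against 6.89 and 6.84 in the untreated livers, where the lowest signals above background on the same arrays were 7.08 and 7.08 for the thiamine arrays and 7.25 and 7.24 for the untreated arrays. Set against the lowest signals of the untreated arrays, Pygb was 1.31-fold higher in the thiamine livers. For this value each untreated array was given its lowest signal above background where the Pygb spot lay under it. The mean of the thiamine values was then set against the mean of these floors. The floors are no strict limit of detection. A spot of another gene, Prkag2, at 7.83 in untreated rat 1 was also not well above background. The same held for a Ppp1r3d spot at 7.44 in untreated rat 2. A higher floor would give a smaller fold, so 1.31 is no strict minimum. The measured means were 7.64 ± 0.0043 in the thiamine livers and 6.86 ± 0.034 in the untreated livers (SD, n = 2 each).

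The fitted difference of Pygb was 0.77 ± 0.18 (limma adjusted p = 0.25). It passed the filter through the thiamine group only, so the filter itself favoured a difference in this direction. The direction is therefore no separate result, and the fitted size is not a measured fold. The fold over the floors lay between 1.303 and 1.316 with any 1 rat left out. These values use the same selected probe and the same floors, so they do not test it. The fitted size was 1.32 with plain subtraction of background and 1.002 with a smaller normexp offset of 16, and it was 0.72 with median scaling between arrays. Beside Pygb, all 9 measured Kupffer cell and macrophage markers were higher in the thiamine livers, with a median of 0.62. The groups overlapped for 3 of the 9, Clec4f among them, and the lowest limma adjusted p was 0.33. Over all kept probes, 50.9% were higher and 36.2% had groups that did not overlap. The summed level of the 9 was 29062 and 20203 in thiamine rats 1 and 2, against 19734 and 12801 in untreated rats 1 and 2. Each of the 9 was above background on all 4 arrays. Of the liver endothelial markers 6 of 7 were higher, with a summed level of 6357 and 5689 in the thiamine livers, against 4621 and 4425 in the untreated livers. All 3 kept lymphocyte markers and all 2 kept erythroid markers were higher too. Stellate cell markers went 3 higher and 2 lower, and cholangiocyte markers 1 higher and 1 lower. Of the hepatocyte markers 7 of 8 were lower, but 5 of the 8 were saturated on all 4 arrays, so their directions give no comparison. The 2 kept muscle markers were lower. In each of these lists 0 markers passed limma at an adjusted p under 0.05. The part of these cell types, and of the larger number of probes above background on the thiamine arrays, in the values of Pygb was not tested.

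Ppp1r3b and Ppp1r3c encode targeting subunits of protein phosphatase 1 that promote the active form of glycogen synthase, the first known mainly from liver and the second also from muscle and fat. Ppp1r3b read 233 and 251 in the thiamine livers, against 232 and 240 in the untreated livers. These intensities overlap, but after normalization the thiamine values, 8.14 and 8.17, were both below the untreated values of 8.28 and 8.33 (log2). The difference was -0.15 ± 0.18 (n = 2 per group, limma adjusted p = 0.93), and it stayed between -0.17 and -0.13 with any 1 rat left out. The order of the groups for Ppp1r3b was thus seen after normalization between arrays and not before it.

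Ppp1r3c read 10790 and 7435 in the thiamine livers, against 9856 and 11288 in the untreated livers. As with Ppp1r3b, the intensities of the groups overlap and the normalized values, 13.26 and 12.83 in the thiamine livers against 13.40 and 13.52 in the untreated livers, do not. The difference was -0.42 ± 0.20 (a fold of 0.75, n = 2 per group, limma adjusted p = 0.76), with a 95% interval from -0.86 to 0.022. Thiamine rat 2 decided its size: leaving that rat out gave -0.20, and leaving out thiamine rat 1 gave -0.64. A further Ppp1r3c probe was not well above background on any array.

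**Figure D2:**
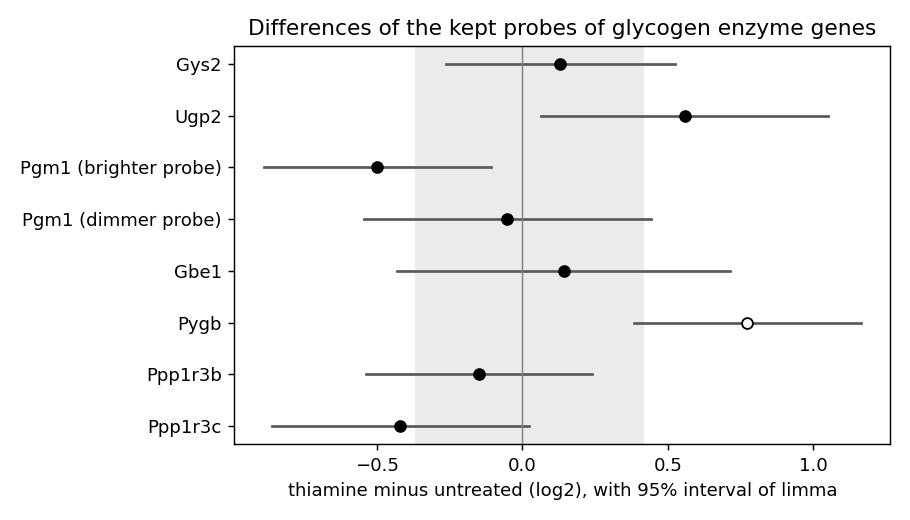
Thiamine minus untreated (x axis, log2) for the 8 kept probes, each with its 95% interval from limma, not corrected for the number of probes; the shaded band holds the middle 90% of all kept probes, from -0.37 to 0.41. Pygb, Ugp2, the brighter Pgm1 probe and Ppp1r3c lie outside the band, and the open point of Pygb marks a gene not well above background in untreated livers.

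As a list, the genes went both ways. Of the 6 genes above background on all 4 arrays, 3 were higher and 3 lower and their median difference was -0.0099, against 48.7% higher among the 16180 probes of the same kind. The groups did not overlap for 5 of these 6, where 35.2% of such probes, and 36.2% of all kept probes, had groups that did not overlap. Of these 5, Gys2 and Ppp1r3b differed by less than 1 SE, and for Ppp1r3b and Ppp1r3c the intensities before normalization overlapped. Of the synthesis genes 3 were higher and 1 was lower, and both phosphatase subunits were lower. Since the list holds few genes with 2 rats per group, these counts describe the list and single out nothing about it.

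**Figure D3:**
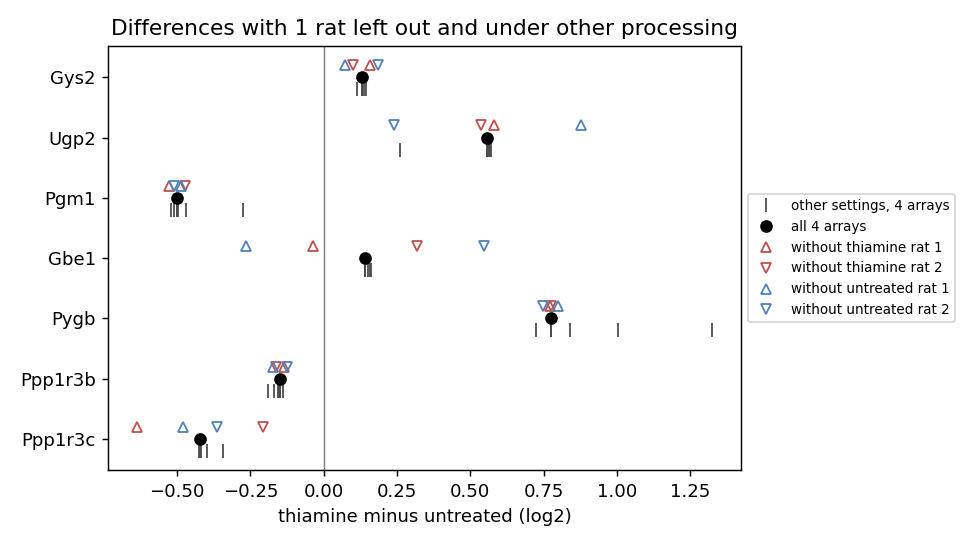
Thiamine minus untreated (x axis, log2) for the 7 measured genes: filled points use all 4 arrays, triangles leave 1 rat out and short bars are other processing settings with all 4 arrays. The triangles of Ugp2, Gbe1 and Ppp1r3c spread widely, those of Gbe1 across 0, while those of Pgm1 and Pygb stay close to the filled point.

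Around these genes, 44 further genes of glycogen metabolism were taken, of which 38 had a named probe and 33 were kept. Of the 33, 17 were higher and 16 lower. Their median difference was 0.0049, against 0.0054 over all kept probes. Of the 31 above background on all 4 arrays, 15 were higher and 16 lower, and the median was -0.063. In all, 0 passed limma at an adjusted p under 0.05. Groups did not overlap for 5 higher and 7 lower genes, against 17.8% and 18.3% of all kept probes. At an unadjusted p under 0.05 there were 0 higher and 2 lower genes, namely Gckr and Prkaca, against 3.81% higher and 2.94% lower of all kept probes. This share is near that of all probes, so the values of these genes describe them and say nothing of the list. The 2 genes not above background on all 4 arrays were Epm2a and Ppp1r3d.

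Gckr encodes a regulatory protein of glucose use in the liver. It was at 9.78 and 10.13 in the thiamine livers, against 10.57 and 11.47 in the untreated livers. Both thiamine rats were below both untreated rats, and untreated rat 2 was the highest. The difference was -1.06 ± 0.27 (limma adjusted p = 0.30), and a second probe gave -1.05 ± 0.25. On leaving out untreated rat 2 the difference was -0.61, and on leaving out untreated rat 1 it was -1.51, where it passed (limma adjusted p = 0.047).

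Prkaca encodes a catalytic subunit of protein kinase A, which passes the glucagon signal on to phosphorylase kinase and glycogen synthase. It was at 8.87 and 8.57 in the thiamine livers, against 9.34 and 9.52 in the untreated livers. Both thiamine rats were below both untreated rats, and the difference of -0.71 ± 0.19 (limma adjusted p = 0.33) stayed between -0.87 and -0.56 when any 1 rat was left out. Of the other kinases that act on the synthase or its switch, the AMP-activated kinase subunit Prkaa2 differed by 0.31 ± 0.23, the nutrient-sensing kinase Pask by -0.27 ± 0.19 and the glycogen synthase kinase Gsk3b by -0.23 ± 0.23 (limma adjusted p between 0.85 and 0.90). With 1 rat left out, Prkaa2 ran from 0.045 without thiamine rat 1 to 0.58 without thiamine rat 2, and Pask from -0.42 without untreated rat 1 to -0.12 without untreated rat 2. Of the 12 kept kinase genes 5 were higher and 7 lower.

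**Figure D4:**
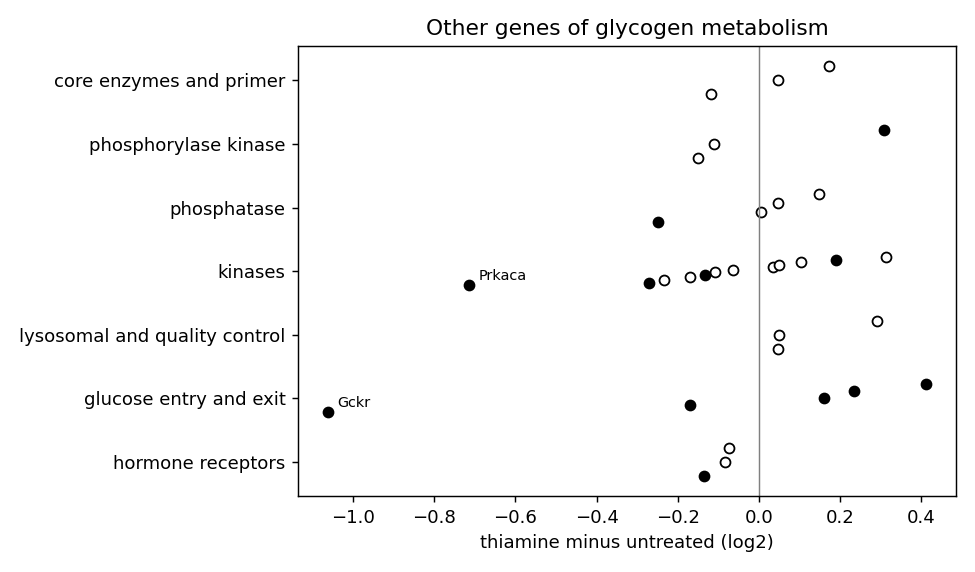
Thiamine minus untreated (x axis, log2) for the 33 kept other genes of glycogen metabolism, 1 point per gene in rows by role; filled points are genes whose groups do not overlap and open points those that overlap. The named points, Gckr and Prkaca, are those with an unadjusted p under 0.05 in limma, and the remaining genes lie between -0.27 and 0.41.

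The other genes of the pathway did not pass the test. The liver glucose carrier Slc2a2 was higher in both thiamine rats than in both untreated rats, by 0.41 ± 0.20 (limma adjusted p = 0.77). Leaving out untreated rat 2 gave 0.19 and leaving out untreated rat 1 gave 0.63. Its spot in thiamine rat 1 carried the contamination flag. With flagged spots set to missing, which leaves 1 thiamine value, the difference was 0.45. The glucose 6-phosphate carrier Slc37a4 was also higher in both thiamine rats, by 0.24 ± 0.18 (limma adjusted p = 0.87). G6pc3, a glucose 6-phosphatase made in many tissues, differed by -0.17 ± 0.18 (limma adjusted p = 0.91). For phosphorylase kinase, the muscle alpha subunit Phka1 differed by 0.31 ± 0.18 on 1 of its 3 probes, the other probes being not well above background on any array, while the beta subunit Phkb was at -0.11 ± 0.19 and the catalytic subunit Phkg2 at -0.15 ± 0.20. The glycogen primer Gyg1 (0.05 ± 0.18), the muscle glycogen synthase Gys1 (-0.12 ± 0.19) and the phosphoglucomutase relative Pgm2l1 (0.17 ± 0.19) had groups that overlapped.

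Among the phosphatase genes, the catalytic subunit Ppp1ca differed by -0.25 ± 0.18, Ppp1cb by 0.05 ± 0.18 and Ppp1cc by 0.0049 ± 0.20, and the further targeting subunit Ppp1r3d by 0.15 ± 0.22. The Ppp1r3d spot of untreated rat 2 was not above background. The lysosomal glycogen enzyme Gaa was at 0.05 ± 0.18, the glycogen-binding protein Stbd1 at 0.05 ± 0.18 and the glycogen phosphatase laforin, encoded by Epm2a, at 0.29 ± 0.28. For Epm2a too the spot of untreated rat 2, at 6.89, was not above background. The receptors of the hormones that govern the store differed by small amounts: -0.13 ± 0.18 for the glucagon receptor Gcgr, -0.07 ± 0.18 for the insulin receptor Insr and -0.08 ± 0.19 for the adrenergic receptor Adra1b. Both untreated spots of Adra1b carried the contamination flag, so it has no difference with flagged spots set to missing. A further Insr probe was not well above background on any array. Leaving Slc2a2 aside, the lowest limma adjusted p of the genes in this and the preceding paragraph was 0.82, that of Phka1.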

How the data were processed

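Per the file headers, CodeLink Expression Analysis 5.0.0.31312 wrote the 4 scanner reports, which hold intensity values on a linear scale, namely spot mean, local background median and their difference, not normalized. The value table deposited with the series gives intensities of these arrays normalized between arrays, by steps not given in the sources used here, and served as an alternative. Masked spots were missing. Background was corrected with normexp (offset 50) over all 35129 features, and the log2 values of 33849 gene probes were quantile normalized. A probe was kept if both spots of at least 1 group were not flagged as near background. The comparison of thiamine with untreated used two-sided tests of limma 3.58.1 under R 4.3.3 (eBayes after lmFit), and p-values were adjusted over the 18664 kept probes by the method of Benjamini and Hochberg. Each SE is moderated by limma, and an interval uses its 10.8 degrees of freedom. Intensities per spot are given as deposited, before normalization.

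Names came from the platform annotation, updated against the GRCr8 RefSeq table (16753 probes with 1 symbol, 165 with several and left unnamed), and from the RefSeq accessions of the reports (367 probes), and 16564 probes have no name here. The brightest kept probe stood for a gene. Promoter windows were in the RefSeq table for 6 of 7 measured genes. Named genes are all members and up to 4 genes per further list by smallest unadjusted p. Some genes of the further lists are not reported here. Members and lists were chosen with earlier results of these data known. The fit was tested on simulated data. Alternatives covered background correction, scaling, filter, flagged spots, deposited table, replicate block, probe choice and each rat left out; each array lay on a slide of its own and no scan date was used, so no batch could be fitted.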

Additional observations from a re-analysis of the deposited data

How the results depend on the processing

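For the 7 measured genes, 88 of 90 recomputed differences kept their direction, and 0 of them passed the threshold. Of these 88, 12 were of Pygb, which was kept through the thiamine group only, so that the filter favoured their direction. The 2 differences that turned are those of Gbe1, -0.035 on leaving out thiamine rat 1 and -0.26 on leaving out untreated rat 1, in a range up to 0.55. Pygb has no value among probes above background on all 4 arrays. With 1 rat left out, between 3 and 4 of the 7 genes, Pygb included, were higher and between 3 and 4 lower, and their median, 0.13 with all rats, ran from -0.17 to 0.19; among probes above background on all 4 arrays it was -0.0099.

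With the replicate number as a block, 126 probes of the whole array were called against 0 without it, and among the named genes Gckr passed (-1.06, adjusted p = 0.010). The labels do not say that a number marks a shared litter or day. Over all 18664 kept probes, deviations of same-numbered rats correlated at -0.074. With 2 rats per group, this value cannot decide whether same-numbered rats shared a condition that acts on some genes. No other named gene changed its call with the block. Leaving out 1 rat gave between 2 and 89 called probes, with a lone rat assumed to vary like the other group, and between 818 and 2556 at an unadjusted p under 0.05, against 1260.

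The further 33 genes had a median of 0.0049, which was -0.012 with no filter on dim probes, -0.063 among probes above background on all 4 arrays, 0.025 with flagged spots missing, 0.013 in the deposited table, -0.018 over all probes of a gene and between -0.057 and 0.032 with 1 rat left out; with 1 rat left out 14 to 21 were higher and 13 to 20 lower. Of 309 recomputed differences of named genes around the members, 15 reversed. With 1 rat left out, Adra1b ran from -0.22 to 0.054, Epm2a from -0.17 to 0.75, Gaa from -0.00061 to 0.10, Gsk3b from -0.51 to 0.043, Gys1 from -0.26 to 0.021, Insr from -0.19 to 0.039, Phkb from -0.30 to 0.078, Phkg2 from -0.37 to 0.073, Ppp1cc from -0.21 to 0.22, Ppp1r3d from -0.16 to 0.46 and Stbd1 from -0.046 to 0.14. Of the genes that kept their sign, G6pc3 ran from -0.27 to -0.067, Gcgr from -0.23 to -0.036, Pgm2l1 from 0.054 to 0.29 and Ppp1ca from -0.34 to -0.15. Over all probes of a gene, Ppp1cb was at -0.017 and Stbd1 at -0.018. The cause of these shifts was not tested. A block by slide or scan batch was not run, since each array had its own slide and no scan date was used.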
